A study of Mus musculus with 6 samples.

Results

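Imprinted genes are transcribed mainly from the chromosome inherited from 1 parent. A list of 40 such genes was put together for brain tissue, with earlier results of these data known. It was looked up by symbol in an RNA count table of 22584 genes, and 34 were found. The 6 not matched by symbol were Rian, Phlda2, Snurf, Ddc-as, Nespas and Zrsr1. The table covers brain tissue of wild-type mice in 6 libraries. In 3 control libraries the RNA was extracted with TRIzol, a phenol and guanidine reagent, and in 3 libraries with AllPrep, a kit whose columns separate DNA, RNA and protein of the same lysate. The comparison addresses how far transcript levels measured after the kit differ from those after conventional extraction. The labels give no age, sex or brain region and do not tie libraries to animals. A p-value here therefore covers no more than the variation among the 6 libraries, part or all of which may be technical.

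Imprinting rests on DNA methylation that is set in the germ line at control regions and kept in the cells of the offspring. Imprinted genes lie in clusters that often hold both paternally and maternally expressed genes and at least 1 long non-coding RNA, and many of the coding genes act on growth, feeding and hormone systems. Several are known for strong expression in the hypothalamus, and Igf2 is known for expression in the choroid plexus and meninges.

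Totals per library ran from 36395330 to 50937858 counts. Levels are given as CPM (counts per library scaled to the same column total), and fold changes are AllPrep over TRIzol from edgeR, with the threshold at a Benjamini-Hochberg adjusted p below 0.05 over 16325 tested genes. Markers of other cell types and regions moved with the method. The summed level of 10 choroid plexus markers was 20.6 to 36.7 CPM in TRIzol and 624 to 1258 CPM in AllPrep. Most of the AllPrep sum was Ttr alone, with 661, 562 and 1121 CPM in replicates 1 to 3. Otx2, which did not rise, gave 9.94 of the 36.7 CPM in TRIzol replicate 2. The summed level of 12 hypothalamic markers was 7.73 to 8.60 CPM in TRIzol and 32.5 to 55.7 CPM in AllPrep. In AllPrep 9 of 10 choroid plexus markers rose, as did 5 of the 10 hypothalamic markers that passed the low-count filter. Neuron markers Rbfox3, Snap25, Syt1, Tubb3 and Stmn2 summed to 5826 to 6501 CPM and 4854 to 5586 CPM, so the tissue label matched its defining genes. The 13 mitochondrially encoded mRNAs took 5.42% to 6.94% of counts in TRIzol and 4.09% to 4.94% in AllPrep, without overlap. The part of this in the results was not tested, and only the share of counts on the list was also computed without these mRNAs. In bulk tissue, fewer cells of a type and less RNA per cell cannot be told apart.

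Peg10, Mest and Magel2 rose and Meg3 and Mirg fell in AllPrep. These were 5 of the 34 imprinted genes, all of which passed the low-count filter, and 29 did not pass the test. The share of all tested genes past the threshold was 3.8%, with 2.52% higher and 1.28% lower, and the whole table split into 412 higher and 209 lower genes. That split, 66.3% higher, was 52.6% with library size alone and 38.1% with transcript length and GC trends removed. The genes that rose are coding genes expressed from the paternal chromosome, and those that fell are maternally expressed non-coding RNAs of a single locus. Among all 34 genes the median log2 fold change was 0.19, against -0.01 over all tested genes, with 25 positive and 9 negative values, where 48.5% of all tested genes were positive. The libraries of the methods did not overlap for 12 genes that were higher and 3 that were lower in AllPrep, where 13.4% and 20.6% of all tested genes did so. Since the list was chosen with earlier results of these data known, these contrasts with all tested genes are description and no test of the list. Each of the 5 calls depended on the number of libraries: without any 1 of the 6 libraries, Peg10, Mest, Magel2 and Meg3 no longer passed, and Mirg passed only without TRIzol replicate 1, TRIzol replicate 3 or AllPrep replicate 1. In DESeq2, where 8.3% of tested genes were higher and 5.38% lower, 9 imprinted genes were higher (Igf2r, Zim1, Ube3a, Asb4, Plagl1 and Nnat beside the 3 named) and the same 2 lower. In the fits with 5 libraries the calls over all genes also dropped from 621 to between 2 and 205.

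**Figure D1:**
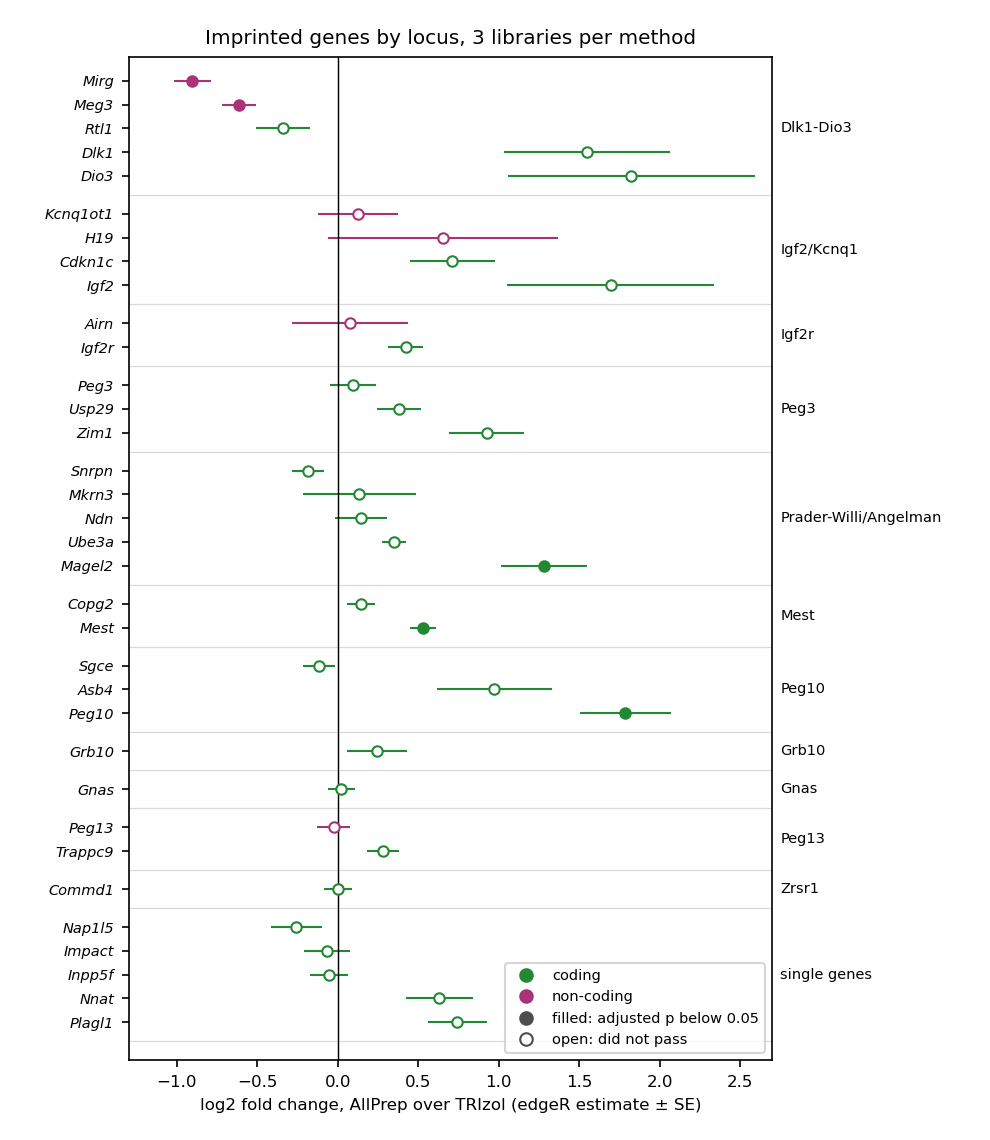
Log2 fold change of the 34 imprinted genes, AllPrep over TRIzol, with its standard error (horizontal axis), grouped by locus; filled points passed the test and open points did not. Mirg (-0.90) and Meg3 (-0.61) lie left of 0 and Mest (0.53), Magel2 (1.28) and Peg10 (1.79) to the right.

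Per kilobase of the longest annotated transcript, the mean level over the 6 libraries ranged from 337 CPM per kb for Gnas to 0.0847 CPM per kb for H19. Nap1l5 (293 CPM per kb), Meg3 (224), Snrpn (153), Impact (123) and Nnat (110) followed Gnas. Apart from Meg3, the genes that passed the test were of low to middle level: Peg10 stood at 11.98 CPM per kb, Mest at 10.7, Mirg at 6.17 and Magel2 at 1.64.

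The Dlk1-Dio3 locus held both genes that fell. Its maternal chromosome gives the non-coding RNAs Meg3, Rian and Mirg, which carry microRNAs and small nucleolar RNAs, and its paternal chromosome gives Dlk1, a transmembrane ligand of the Notch family, Rtl1, a retrotransposon-derived gene, and Dio3, the deiodinase that inactivates thyroid hormone. Meg3 (ENSMUSG00000021268) stood at 3602, 4144 and 4182 CPM in TRIzol replicates 1 to 3 and at 2677, 2235 and 2692 CPM in AllPrep replicates 1 to 3. Every AllPrep library lay below every TRIzol library, a fall of 0.61 on the log2 scale (SE 0.11, adjusted p = 0.033 in edgeR), and the value was -1.07 with length and GC trends removed (adjusted p = 0.010). Mirg (ENSMUSG00000097391) read 31.9, 30.2 and 30.8 CPM in TRIzol and 19.1, 15.1 and 14.3 CPM in AllPrep. The TRIzol libraries lay close together and the groups were far apart, with a log2 fold change of -0.90 (SE 0.11, adjusted p = 0.020).

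The bases before the Meg3 start are shown because Meg3 was the most abundant of the genes that passed. The sequence is the 250 bases upstream of the 5′-most start, from RefSeq (chr12:109540746-109540995, GRCm38.p6, plus strand), printed 5′ to 3′ in lower case with capitals for TGCCGC, letters bound by the imprint-keeping factor ZFP57 when methylated, on either strand (GCGGCA on the other), and for the palindrome TGACGTCA, the cAMP response element.
Meg3 upstream: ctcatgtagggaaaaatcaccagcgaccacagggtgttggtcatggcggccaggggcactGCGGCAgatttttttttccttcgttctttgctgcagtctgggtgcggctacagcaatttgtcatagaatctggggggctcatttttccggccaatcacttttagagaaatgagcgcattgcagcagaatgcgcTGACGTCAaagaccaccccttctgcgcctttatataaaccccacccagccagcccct
The window held 1 match to each. Over 32851 upstream windows of this length, 8.68% held TGCCGC and 1.55% held TGACGTCA. Among 41 windows of 26 imprinted genes of the list, 17.1% and 4.88% did, on 6 and 2 genes. For TGCCGC these were 7 windows, since Mest counts with overlapping windows. Both motifs contain a CpG pair, and the median number of CpG pairs was 10 in the windows of the list and 6 in all windows. The part of CpG content in these shares was not tested. The 2 matches in the Meg3 window do not overlap, and a match is a description of letters only.

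Mirg is the host of a microRNA cluster, and 10 hairpins with 19 mature microRNAs lie within its RefSeq span. The mature microRNAs themselves are not what this gene count table measures. Shown are those of the 3 hairpins that have a row of their own in the table, plus miR-496a-5p, which has the same seed (bases 2 to 8, in capitals) as miR-453; the 19 carried 18 different seeds.
miR-453: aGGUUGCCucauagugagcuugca
miR-496a-5p: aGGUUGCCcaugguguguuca
miR-154-5p: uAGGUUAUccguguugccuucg
miR-154-3p: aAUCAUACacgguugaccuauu
miR-541-5p: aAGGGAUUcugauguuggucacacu
miR-541-3p: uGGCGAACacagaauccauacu
Reads over these hairpins were few. The row of Mir541 had 10, 11 and 19 counts in TRIzol and 10, 8 and 5 in AllPrep, and the row of Mir453 had 11, 9 and 18 and then 10, 12 and 17; neither passed the test (adjusted p = 0.28 and 0.93). Rian itself was not matched, but 3 hairpins lie within its span. Of these, Mir341 had 14, 20 and 25 counts in TRIzol and 24, 28 and 51 in AllPrep and Mir1188 had 21, 34 and 30 and then 51, 20 and 54, which gave 0.67 and 0.40 on the log2 scale (adjusted p = 0.26 and 0.52, neither called). Each of these rows is a short stretch of a long transcript and does not give the level of Rian.

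The paternally expressed genes of the locus did not pass. Rtl1 had 8.46, 9.76 and 7.56 CPM in TRIzol and 8.19, 5.58 and 6.13 CPM in AllPrep, with a log2 fold change of -0.34 (adjusted p = 0.26), or -0.53 with length and GC trends removed. Its libraries overlapped; Rtl1 is overlapped by microRNA hairpins on the opposite strand, and since it is not known whether counting used strand, reads of the 2 strands cannot be told apart. Dlk1 had 10.4, 31.9 and 7.96 CPM in TRIzol against 69.3, 37.7 and 36.3 CPM in AllPrep (log2 fold change 1.55, SE 0.51, adjusted p = 0.12). All AllPrep libraries were above all TRIzol libraries, but TRIzol replicate 2 came close to AllPrep replicates 2 and 3, and without TRIzol replicate 2 the log2 fold change was 2.40. Dio3 read 1.98, 0.415 and 1.07 CPM and then 3.21, 0.960 and 7.70 CPM (log2 fold change 1.82, SE 0.77, adjusted p = 0.19). The groups overlapped and AllPrep replicate 3 held the highest value, without which the log2 fold change was 0.88.

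Peg10 had the largest change among the genes that passed. Peg10, a retrotransposon-derived gene needed for placental development, and Sgce, which encodes epsilon-sarcoglycan, start close together in opposite directions and are both paternally expressed, while Asb4, a member of the ankyrin and SOCS box family, is maternally expressed. Peg10 (ENSMUSG00000092035) rose from 29.3, 51.7 and 28.5 CPM in TRIzol to 168, 102 and 99.3 CPM in AllPrep (log2 fold change 1.79, SE 0.28, adjusted p = 0.029). The lowest AllPrep value was well above the highest TRIzol value, which was that of replicate 2. Sgce stood at 30.8, 28.4 and 26.3 CPM and then at 27.4, 26.6 and 23.0 CPM, with a log2 fold change of -0.12 (adjusted p = 0.50) and overlapping groups. Asb4 had 1.81, 3.79 and 3.56 CPM in TRIzol and 7.89, 6.25 and 3.49 CPM in AllPrep (log2 fold change 0.97, SE 0.36, adjusted p = 0.14). In TRIzol, Peg10 and Sgce thus had similar CPM in replicates 1 and 3, and in AllPrep Peg10 exceeded Sgce in each library.

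In the Prader-Willi/Angelman locus Magel2 rose and the other 4 genes measured did not pass. The paternally expressed genes there are Snrpn, a spliceosome protein gene whose transcripts also carry Snurf, Ndn and Magel2, which encode proteins of the MAGE family and act in hypothalamic neurons, and Mkrn3, a ubiquitin ligase gene that restrains puberty. Ube3a, the ubiquitin ligase lost in Angelman syndrome, is maternally expressed in neurons. Magel2 (ENSMUSG00000056972) had 4.34, 6.12 and 3.02 CPM in TRIzol and 13.5, 8.92 and 9.64 CPM in AllPrep (log2 fold change 1.28, SE 0.27, adjusted p = 0.047). No TRIzol library reached an AllPrep library. Removing length and GC trends left a value of 1.17 and ended the call (adjusted p = 0.071). Ndn, its neighbour of the same family, had 183, 197 and 131 CPM and then 208, 159 and 184 CPM, with overlap (log2 fold change 0.14, adjusted p = 0.61).

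Ube3a had 90.1, 101 and 99.9 CPM in TRIzol and 128, 112 and 122 CPM in AllPrep, a log2 fold change of 0.35 (SE 0.08, adjusted p = 0.0507) just short of the threshold. Its groups did not overlap; it passed in DESeq2 and with counts halved, and its adjusted p ran from 0.0023 to 0.52 over the alternatives. With length and GC trends removed its log2 fold change was 0.12 (adjusted p = 0.40). Snrpn had 387, 315 and 323 CPM and then 303, 295 and 283 CPM (log2 fold change -0.18, adjusted p = 0.28, and -0.078 without TRIzol replicate 1), each AllPrep library lying below each TRIzol library. Mkrn3 was low, at 0.659, 0.882 and 1.38 CPM and then 1.32, 1.09 and 0.746 CPM, with overlap (adjusted p = 0.84). The antisense transcript of Ube3a, Snhg14, is in the table under the name Ipw, paired by its Ensembl ID; it stood at 98.6, 99.3 and 100.1 CPM in TRIzol and 110.1, 97.0 and 123.8 CPM in AllPrep and did not pass (adjusted p = 0.26). Without known strand, reads of Ube3a and this RNA cannot be told apart where they overlap.

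Mest rose while its neighbour Copg2 did not pass. Mest, a paternally expressed gene of the alpha/beta hydrolase family, overlaps at its end with Copg2, a maternally expressed coat protein gene of vesicles. Mest (ENSMUSG00000051855) had 23.5, 22.5 and 24.7 CPM in TRIzol and 31.9, 33.4 and 34.4 CPM in AllPrep (log2 fold change 0.53, SE 0.08, adjusted p = 0.026). Both groups were narrow and clearly apart. Copg2 had 96.4, 120 and 108 CPM and then 123, 115 and 112 CPM (log2 fold change 0.14, adjusted p = 0.35), with overlap. Where the ends of both genes overlap, their reads cannot be told apart without strand.

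The windows before Mest and Magel2 are shown to set beside that of Meg3, since these genes moved the other way. They come from RefSeq, GRCm38.p6, plus strand: chr6:30737800-30738049 for an internal Mest start, chosen because it holds matches, and chr7:62376729-62376978 for Magel2, with the same letters in capitals.
Mest upstream: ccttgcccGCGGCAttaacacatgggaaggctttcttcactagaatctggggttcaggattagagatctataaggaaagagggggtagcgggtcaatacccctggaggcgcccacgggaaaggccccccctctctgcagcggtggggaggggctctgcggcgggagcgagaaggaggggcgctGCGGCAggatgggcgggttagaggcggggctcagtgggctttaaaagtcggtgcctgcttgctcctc
Magel2 upstream: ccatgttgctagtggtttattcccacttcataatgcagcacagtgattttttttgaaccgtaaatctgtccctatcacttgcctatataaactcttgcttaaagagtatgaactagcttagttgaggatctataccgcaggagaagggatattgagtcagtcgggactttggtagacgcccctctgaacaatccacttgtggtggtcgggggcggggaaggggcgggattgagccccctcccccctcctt
The Mest window held 2 matches to TGCCGC and 14 CpG pairs, and the Magel2 window no match to either motif and 7 CpG pairs. The window of the 5′-most Mest start held no match and 7 CpG pairs, and that of a second, downstream Meg3 start held no match and 0 CpG pairs. The Meg3 window held 10 CpG pairs, and the median was 6 over all windows and 10 over the windows of the list.

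The Peg3 locus had 3 positive values and none passed. Peg3 is a zinc finger gene and Usp29 a deubiquitinase gene; they are paternally expressed and start head to head, while Zim1, another zinc finger gene, is maternally expressed. The bases between the starts of Peg3 and Usp29 are shown as the stretch that lies upstream of both (RefSeq, GRCm38.p6, chr7:6730420-6730582, minus strand).
Peg3-Usp29 interval: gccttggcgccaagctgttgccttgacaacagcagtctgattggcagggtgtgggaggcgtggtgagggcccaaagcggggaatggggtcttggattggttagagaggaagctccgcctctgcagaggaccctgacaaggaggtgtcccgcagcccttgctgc
The interval is 163 bases long and held neither motif. The full window of 250 bases before the Peg3 start, which runs on past the Usp29 start, held TGACGTCA, and that before the Usp29 start held neither. Peg3 had 640, 769 and 648 CPM in TRIzol and 887, 639 and 624 CPM in AllPrep, a log2 fold change of 0.10 (adjusted p = 0.71) carried by AllPrep replicate 1; without that library it was -0.07, and with length and GC trends removed -0.18. Usp29 had 45.3, 56.6 and 40.8 CPM and then 69.3, 53.5 and 58.8 CPM (log2 fold change 0.38, SE 0.14, adjusted p = 0.14). Removing length and GC trends left 0.18. Zim1 had 8.35, 12.4 and 7.69 CPM and then 21.2, 12.7 and 18.9 CPM (log2 fold change 0.93, SE 0.23, adjusted p = 0.066). For Zim1 the groups did not overlap, though TRIzol replicate 2 lay just below AllPrep replicate 2, and it passed in DESeq2 and with no low-count filter.

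**Figure D2:**
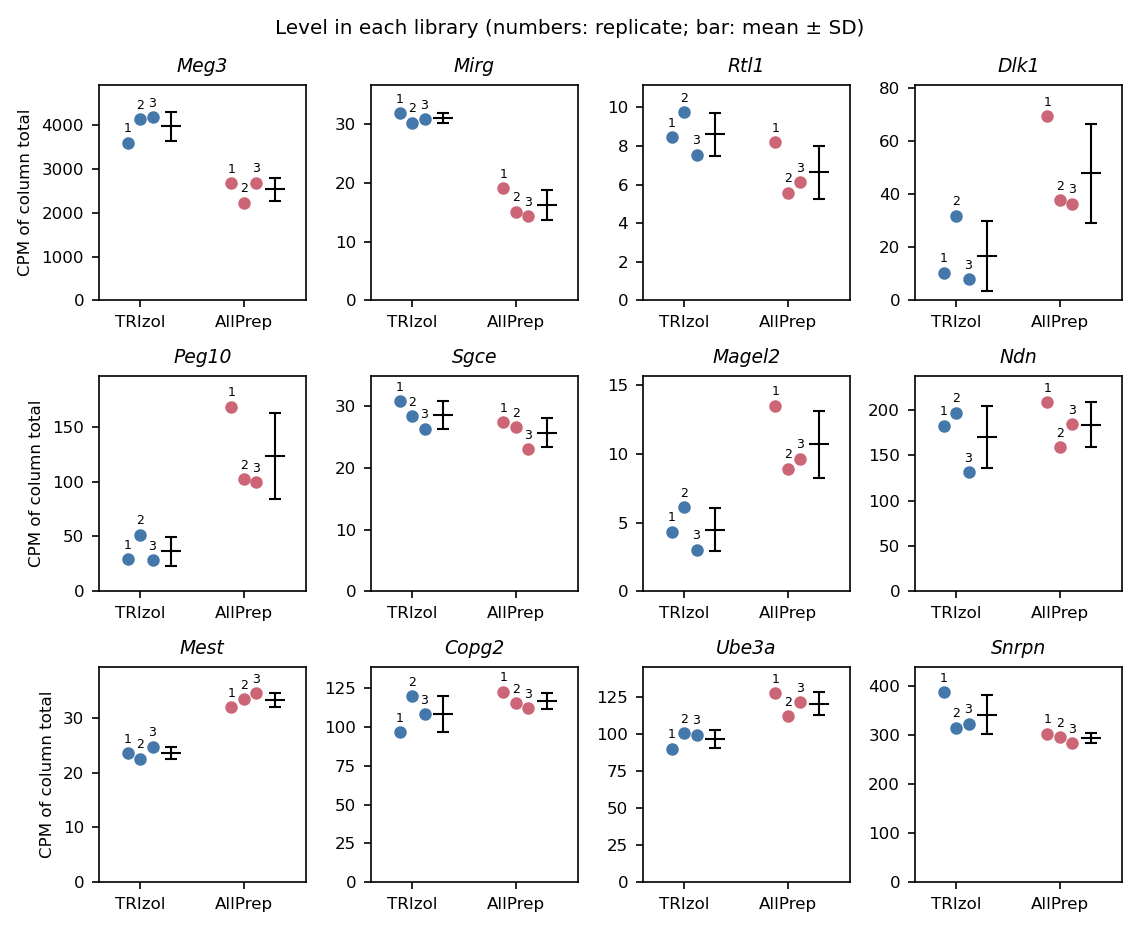
CPM of 12 imprinted genes in each library (vertical axes start at 0; points are libraries, numbered by replicate, and bars are mean ± SD, n = 3). Peg10 lies at 28.5 to 51.7 CPM in TRIzol and 99.3 to 168 CPM in AllPrep, while Sgce of the same locus overlaps.

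None of the 6 genes measured in the Igf2/Kcnq1 and Igf2r loci passed; their log2 fold changes were positive, though that of Kcnq1ot1 turned with length and GC trends removed and that of Airn without TRIzol replicate 1 or AllPrep replicate 3. Igf2, the insulin-like growth factor, had 2, 15 and 23 counts in TRIzol and 44, 21 and 78 counts in AllPrep, or 0.0550, 0.389 and 0.511 CPM and then 1.00, 0.545 and 1.53 CPM (log2 fold change 1.70, SE 0.64, adjusted p = 0.15). TRIzol replicate 1 was the lowest by far, and the lowest AllPrep library lay just above the highest TRIzol library. H19, the non-coding RNA beside it, had 2, 10 and 6 counts and then 12, 14 and 4 counts, too few to show a difference (adjusted p = 0.60). Cdkn1c, an inhibitor of cell division, had 3.49, 3.04 and 2.36 CPM and then 4.07, 3.61 and 6.46 CPM (log2 fold change 0.71, adjusted p = 0.15, and 0.41 without AllPrep replicate 3), and Kcnq1ot1, the non-coding RNA that silences its neighbours, 23.4, 14.4 and 20.9 CPM and then 17.7, 16.5 and 28.3 CPM (log2 fold change 0.13, adjusted p = 0.79). With length and GC trends removed Kcnq1ot1 had -0.22. Igf2r, the receptor that clears IGF2, had 44.8, 56.2 and 51.6 CPM in TRIzol and 64.8, 60.5 and 74.2 CPM in AllPrep (log2 fold change 0.42, SE 0.11, adjusted p = 0.067), with no overlap; with length and GC trends removed the value was 0.12 (adjusted p = 0.46). Its antisense RNA Airn stayed at 0.934 to 2.23 CPM in TRIzol and 1.17 to 2.10 CPM in AllPrep (log2 fold change 0.08, adjusted p = 0.92). Igf2r and Airn overlap on opposite strands, as do Kcnq1ot1 and Kcnq1, and their shared stretches cannot be told apart.

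The genes of the remaining loci did not pass. Nnat, which encodes the membrane protein neuronatin, had 132, 123 and 126 CPM in TRIzol and 176, 138 and 262 CPM in AllPrep (log2 fold change 0.63, SE 0.21, adjusted p = 0.12), and AllPrep replicate 3 stood apart. Plagl1, a zinc finger regulator of growth, had 21.4, 25.2 and 23.2 CPM and then 33.2, 30.8 and 49.8 CPM (log2 fold change 0.74, SE 0.18, adjusted p = 0.063), again highest in AllPrep replicate 3. For both genes every AllPrep library was above every TRIzol library, and the log2 fold change without AllPrep replicate 3 was 0.33 and 0.49. Grb10, an adaptor that damps insulin signalling, had 62.8, 99.7 and 66.9 CPM and then 104, 76.8 and 84.5 CPM, with overlap (adjusted p = 0.44).

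Gnas, Nap1l5, Impact, Inpp5f, Commd1 and Peg13 had log2 fold changes between -0.26 and 0.02. Gnas, which encodes the stimulatory G protein subunit, had 1422, 1341 and 1247 CPM in TRIzol and 1353, 1298 and 1327 CPM in AllPrep (log2 fold change 0.02, adjusted p = 0.89). Nap1l5 had 644, 633 and 506 CPM and then 601, 458 and 399 CPM (log2 fold change -0.26, adjusted p = 0.34), and Impact, a regulator of translation under stress, 459, 567 and 415 CPM and then 526, 394 and 423 CPM (-0.07, adjusted p = 0.79). Inpp5f, a phosphoinositide phosphatase gene, had 155, 161 and 154 CPM and then 173, 148 and 122 CPM (-0.06, adjusted p = 0.80). The groups overlapped for each of these genes. Commd1 had 14.8, 15.2 and 14.9 CPM and then 14.0, 14.6 and 15.2 CPM, a log2 fold change of 0.003 (adjusted p = 0.99). Peg13, a non-coding RNA inside an intron of Trappc9, had 316, 303 and 321 CPM and then 335, 313 and 256 CPM (-0.02, adjusted p = 0.91), and Trappc9, a trafficking complex gene, 69.3 to 90.2 CPM and then 91.7 to 96.9 CPM (0.28, SE 0.10, adjusted p = 0.13, and 0.19 with length and GC trends removed). Nespas, the antisense RNA of Gnas, is in the table as Gnasas1, paired by its Ensembl ID, and had 9 to 16 counts in each library (log2 fold change -0.03).

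The calls that rose were all coding and those that fell all non-coding; the difference between the classes was not tested. Of 28 coding genes 3 rose, none fell and 25 did not pass, the median log2 fold change was 0.32, and 22 values were positive. Of 6 non-coding genes 2 fell, none rose and 4 did not pass, with a median of 0.03. The non-coding median turned negative in several alternatives, such as -0.18 with length and GC trends removed, and Meg3 and Mirg had negative values in every fit. Over the whole table, 8 of 914 long non-coding genes were called higher and 15 lower (median -0.12), against 402 higher and 191 lower of 15064 coding for protein (median -0.0049). A further list held long non-coding RNAs, many of them nuclear but some, such as Norad, cytoplasmic. Of its 10 tested, 8 had negative values, 6 lay lower and 0 higher without overlap, and the median was -0.53. Of these, 2 passed and fell: Snhg11, which the annotation counts as protein-coding, from 2094 ± 63.4 to 1161 ± 76.1 CPM and Miat from 328 ± 7.29 to 205 ± 34.9 CPM (SD, n = 3). The other 8 did not pass, among them Rmst (-0.82), Gas5 (-0.55, adjusted p = 0.0507), Ftx (-0.54) and Neat1 (-0.53), and the positive values were those of Malat1 (0.06) and Norad (0.08). By parent, 2 of 11 maternally expressed genes fell and 9 did not pass (median 0.35), and 3 of 21 paternally expressed genes rose and 18 did not pass (median 0.13).

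The share of all counts that lay on the list was lower in AllPrep with Meg3 and not without it. The 34 genes together took 0.856%, 0.932% and 0.872% of counts in TRIzol and 0.827%, 0.690% and 0.748% in AllPrep, 0.887% ± 0.0402 against 0.755% ± 0.0683 (SD, n = 3). The groups did not overlap, and 3 against 3 libraries allow no exact permutation p below 0.1. With mitochondrially encoded genes left out of the totals, the list took 0.944% ± 0.0363 in TRIzol and 0.791% ± 0.0713 in AllPrep. Meg3 by itself took 0.398% ± 0.0324 in TRIzol and 0.253% ± 0.0259 in AllPrep. Without Meg3 the remaining 33 genes took 0.489% ± 0.0328 and 0.501% ± 0.050, a difference smaller than the spread between libraries.

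Ratios between genes of the same locus were set apart by method in 11 of 16 cases, none past an adjusted threshold. The log2 ratio of 2 genes within a library does not depend on library scaling, and 16 such ratios were formed against the most abundant gene of each locus. In AllPrep 8 ratios were higher and 3 lower in all 3 libraries than in any TRIzol library, and 5 overlapped. These counts have no background share of their own, and single genes did not overlap in the shares given above. Of the ratios, 4 share Meg3 and 2 share Peg10, which were called themselves. Others share Snrpn, whose own libraries did not overlap between methods. The ratios of Magel2 to Snrpn and of Mest to Copg2 also hold a called gene each. An exact two-sided permutation test of 3 against 3 libraries cannot give p below 0.1, and the 11 ratios without overlap reached it (exact test, Benjamini-Hochberg adjusted p = 0.145 over the 16). Sgce to Peg10 moved from a mean log2 ratio of -0.30 ± 0.50 to -2.22 ± 0.35, a relative difference of 3.78-fold. Magel2 to Snrpn moved from -6.30 ± 0.55 to -4.80 ± 0.29, or 2.82-fold, and Dlk1 to Meg3 from -8.17 ± 1.03 to -5.79 ± 0.48, or 5.19-fold (SD, n = 3 in each case). Mirg to Meg3 differed by -0.30, with -6.82, -7.10 and -7.08 in TRIzol and -7.13, -7.21 and -7.55 in AllPrep, so that Mirg was lower relative to Meg3 by 1.23-fold, and by -0.17 on the log2 scale without AllPrep replicate 3. The ratios of Rtl1 to Meg3 and of Airn to Igf2r overlapped.

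**Figure D3:**
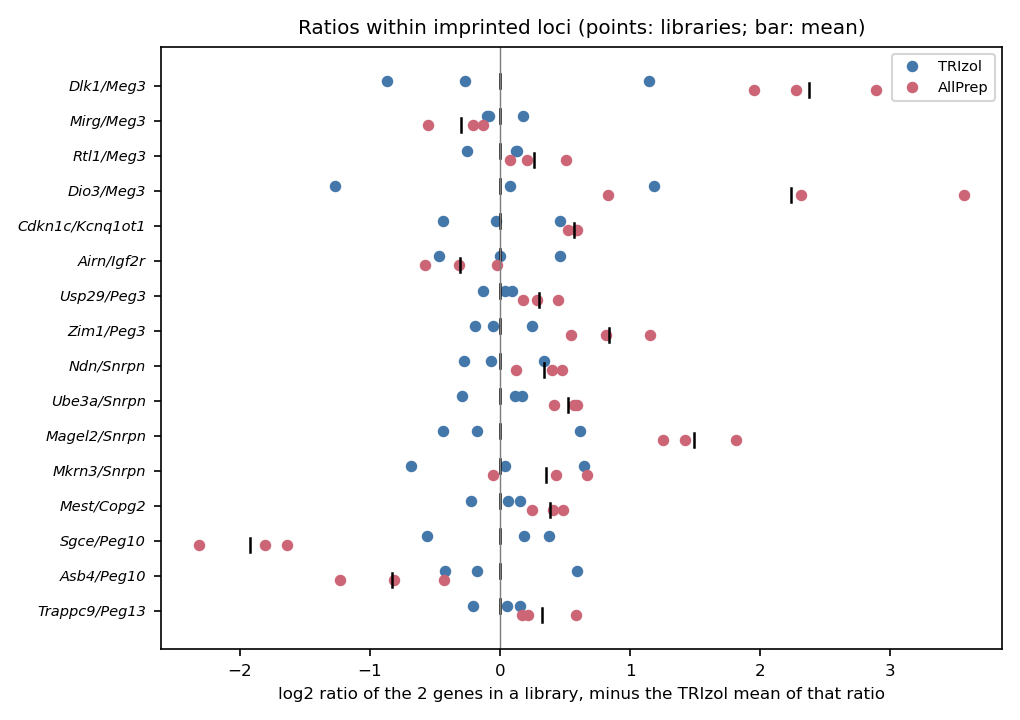
Log2 ratio of 2 genes of a locus in each library, minus the TRIzol mean of that ratio (horizontal axis); points are libraries and bars are means. The AllPrep points lie apart from the TRIzol points for 11 of 16 ratios, with Sgce/Peg10 shifted by -1.92 and Dlk1/Meg3 by 2.37.

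Within each method the libraries differed in which imprinted genes were high, and some marker sums differed with them. TRIzol replicate 2 had the highest TRIzol value of Dlk1, Peg10, Magel2 and Zim1, and its 5 monoamine neuron markers (Th, Slc6a3, Slc18a2, Tph2 and Slc6a4) summed to 317 CPM against 13.2 and 11.8 CPM in TRIzol replicates 1 and 3, while its hypothalamic sum of 8.59 CPM was close to the 8.60 CPM of TRIzol replicate 1. AllPrep replicate 1 had the highest value of Dlk1, Peg10, Magel2, Asb4 and Zim1. It also had the highest sum of hypothalamic markers (55.7 CPM, against 50.1 and 32.5 CPM in AllPrep replicates 2 and 3). Single genes weighed heavily in that sum: Pmch had 2.36, 23.8 and 5.10 CPM in AllPrep replicates 1 to 3. In AllPrep replicate 1, Trh, Oxt and Avp had 14.6, 13.1 and 11.0 CPM. The sum of monoamine neuron markers was also highest in AllPrep replicate 1 among the AllPrep libraries (90.9 CPM, against 20.3 and 11.0 CPM). AllPrep replicate 3 had the highest value of Igf2, Cdkn1c, Dio3, Nnat and Plagl1, and the highest sums of choroid plexus markers (1258 CPM, against 750 and 624 CPM) and of 10 meningeal fibroblast markers (175 CPM, against 129 and 90.2 CPM). TRIzol replicate 1 had the lowest meningeal sum (62.5 CPM, against 131 and 123 CPM) and the lowest choroid plexus sum (20.6 CPM, against 36.7 and 24.0 CPM). Among the TRIzol libraries, Igf2 and Plagl1 were lowest in replicate 1, whereas Cdkn1c, Dio3 and Nnat were highest there. The part of these cell types and regions in the levels of the imprinted genes was not tested. For the genes that fell, neuron marker sums were lower in each AllPrep library than in any TRIzol library. The neuron markers were not uniform: Snap25 (log2 fold change -0.39), Tubb3 (-0.28) and Stmn2 (-0.18) were lower without overlap, while Syt1 (-0.03) and Rbfox3 (0.12) overlapped. The sums of 5 oligodendrocyte markers were also lower in each AllPrep library (2603 to 4500 CPM against 4801 to 5743 CPM). The part of neurons and oligodendrocytes was not tested either. Among the choroid plexus markers, Ttr went from 14.1 ± 2.64 to 782 ± 299 CPM, Kl from 4.31 ± 1.98 to 35.3 ± 16.3 CPM and Calml4 from 0.111 ± 0.0445 to 2.85 ± 1.02 CPM (SD, n = 3). Of the hypothalamic markers, Sim1, Hdc, Trh, Fezf1 and Oxt rose; Sim1 had 0.250 ± 0.102 and 2.41 ± 0.603 CPM, and Trh 1.82 ± 0.540 and 10.2 ± 5.06 CPM, while Pmch was not called. Of 6 ependymal markers 3 rose, Hydin, Dnah11 and Rsph1 among them, and Foxj1 was not called. Of 5 astrocyte markers Slc1a3 rose and Slc1a2 was not called. No call was made among the 5 neuron (Snap25, Syt1, Tubb3), 5 oligodendrocyte (Mbp, Mog), 5 monoamine neuron (Slc6a3, Slc18a2, Tph2, Slc6a4), 10 meningeal (Dcn, Fmod, Col1a1, Col1a2), 5 microglia (Csf1r, Cx3cr1), 5 endothelial (Flt1, Slco1a4, Pecam1) and 3 blood cell markers (Hba-a1, Hbb-bt).

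**Figure D4:**
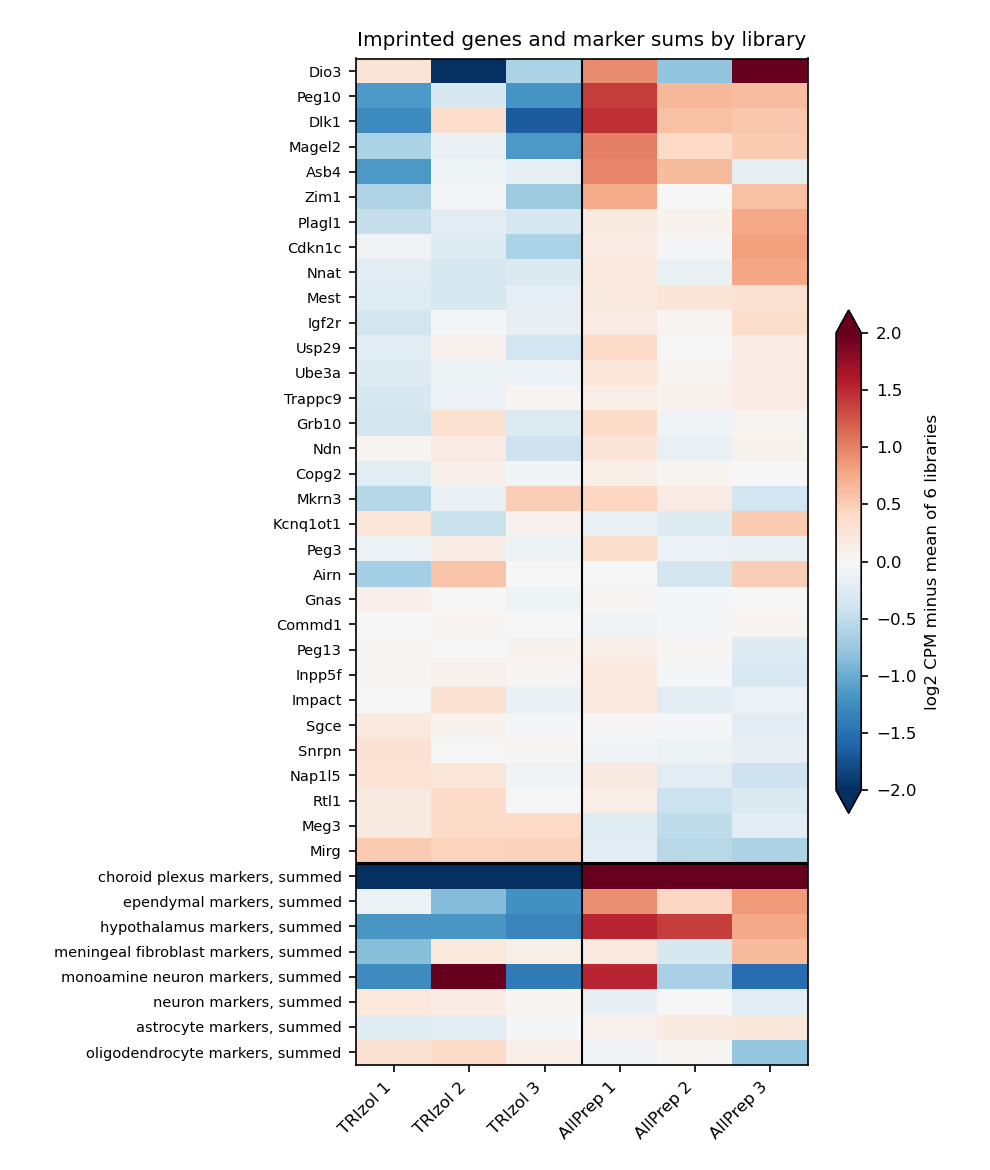
Log2 CPM minus the mean of the 6 libraries, for the 32 imprinted genes with at least 10 counts in each library (above the line) and for summed markers of 8 cell types or regions (below); colors saturate at -2 and 2. Meg3 and Mirg are below their mean in all AllPrep libraries, and Dlk1, Peg10 and the monoamine markers are high in TRIzol replicate 2 for that method.

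Further imprinted genes gave 3 calls. A further list of imprinted genes, also chosen with earlier results of these data known, had 45 entries, of which 38 were tested. Of these 3 rose (7.89%, where 2.52% of all tested genes were higher), none fell, and the median was 0.15 on the log2 scale. Ago2, a core protein of the microRNA machinery, had 98.9 ± 4.04 CPM in TRIzol and 169 ± 19.5 CPM in AllPrep (0.81 on the log2 scale, SE 0.09, adjusted p = 0.018). Zdbf2, a paternally expressed gene linked to feeding, went from 36.3 ± 3.65 to 75.9 ± 12.6 CPM (1.10, SE 0.13, adjusted p = 0.020), and Ppp1r9a, which encodes an actin-binding protein of synapses, from 308 ± 42.9 to 455 ± 39.2 CPM (0.60, SE 0.12, adjusted p = 0.043; SD, n = 3). In each case all AllPrep libraries were above all TRIzol libraries. The abundant Rasgrf1 (0.16) and Cd81 (-0.15) did not pass. Over 21 tested factors of imprint maintenance and DNA methylation the median was 0.05 on the log2 scale. Among them, chosen after its values were seen, was Zfp445, a zinc finger protein that protects imprints, with 252 ± 17.4 and 202 ± 0.846 CPM (-0.28, adjusted p = 0.077).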

How the data were processed

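RNA of wild-type mouse brain from 3 AllPrep and 3 TRIzol libraries was analysed; amplification before sequencing used in vitro transcription from a T7 promoter, per the labels' protocols. The authors deposited raw read counts per gene. The submitters' processing notes name STAR 2.7.9a, FastQC 0.11.9, featureCounts, cutadapt and limma 3.60.6, with build GRCm39. How counting treated strand and multi-mapped reads: not given in the sources used here. Groups came from the sample titles, and columns were matched by name. Of 22692 rows, 108 repeats of an Ensembl ID with identical counts were removed. Between 64.2% and 70.9% of the counts from 1 to 20 were even, and halved counts were an alternative. Libraries of a method differed beyond sampling noise (lowest ratio of chi-square to its degrees of freedom 13.6).

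The whole table was fitted with edgeR 4.0.16 in R 4.3.3 (filterByExpr, TMM, quasi-likelihood F-test, two-sided, Benjamini-Hochberg), without a replicate block; the step was tested on simulated data. Same-numbered libraries did not deviate together (correlations -0.110, -0.0467 and 0.169). The SE is the fold change divided by the square root of F. Totals of 36395330 to 50937858 counts set the precision. Transcript lengths and sequences came from GENCODE vM21 and RefSeq tables on GRCm38, and hairpins were placed within genes on that build. The members and lists were chosen with earlier results of these data known. By rule, all genes past the threshold, all of 4 large loci and the most abundant of the others are described. Alternatives were DESeq2 1.42.0, limma-voom (limma 3.58.1), other scalings and filters, halved counts, a block, length and GC trends removed (mgcv 1.9.3), and each library left out. Results for a few genes of the other lists are not reported here.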

Additional observations from a re-analysis of the deposited data

How the results depend on the processing

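The numbers of imprinted genes past the threshold, 3 higher and 2 lower, became 9 higher in DESeq2 (where 8.3% of all genes tested were higher) and 5 higher with no low-count filter. With length and GC trends removed 2 were higher, Magel2 being lost. With the replicate number as a block they were 1 higher and 1 lower, Meg3, Mest and Magel2 being lost (adjusted p = 0.067, 0.057 and 0.063), although same-numbered libraries did not deviate together, and with length and GC trends removed plus the block 0 were higher and 2 lower; the cause was not tested. Leaving out 1 library gave 0 higher and 0 to 1 lower, with fewer samples in each fit. The median of all members, 0.19, ran from 0.19 to 0.32 without 1 library. Some other alternatives gave less: 0.13 with length and GC trends removed and 0.15 with the block added. It was 0.14 with at least 1 CPM in 3 libraries, 0.15 with counts halved and 0.16 with library size alone. The coding median of 0.32 was 0.14 with length and GC trends removed and 0.16 with the block added. The non-coding median of 0.03 was -0.0094 with library size alone, -0.025 with at least 1 CPM in 3 libraries, -0.018 with counts halved, -0.18 with length and GC trends removed, -0.18 with the block added, and ran from -0.18 to 0.081 without 1 library. The members' share of counts, a difference of -0.132 percentage points, was 0.0121 without Meg3 and -0.153 with mitochondrially encoded genes left out of the totals.

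Genes near 0 turned. With length and GC trends removed, values were -0.22 for Kcnq1ot1, -0.18 for Peg3, -0.054 for Gnas and -0.058 for Commd1, and with the block added -0.22, -0.19, -0.050 and -0.059. Library size alone gave -0.012 for Gnas and -0.033 for Commd1. Without 1 library the log2 fold change ran from -0.17 to 0.28 for Kcnq1ot1, -0.19 to 0.42 for Airn, -0.068 to 0.18 for Peg3, -0.0097 to 0.25 for Ndn, -0.076 to 0.47 for Mkrn3, -0.023 to 0.075 for Gnas, -0.092 to 0.077 for Peg13, -0.032 to 0.047 for Commd1, -0.18 to 0.059 for Impact and -0.17 to 0.060 for Inpp5f. Meg3, Mirg, Peg10, Mest and Magel2 kept their direction in all 16 alternatives. H19 and Igf2, at 2 to 78 counts, are limited by depth.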
